A study of Rattus norvegicus with 36 samples.

Results

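A set of mitochondrially encoded respiratory chain genes was followed across the striatum of 36 rats. The rule named 10 genes by identifier out of 23965 in the count table, by what they encode and not by their values, and all 10 passed the filter of a mean raw count of at least 50 that left 12657 genes for testing. The animals were male Sprague Dawley rats aged 2 months, either BACHD transgenic rats (TG), which carry a bacterial artificial chromosome with the full-length human huntingtin gene bearing an expanded repeat, or wildtype littermates (WT). They were raised in a standard environment (SE), an enriched environment with larger cages and changing toys (EE), or with daily maternal separation after birth followed by standard housing (MS, labelled ELS in the sample records), with 6 animals in each of the groups WT_SE, TG_SE, WT_EE, TG_EE, WT_MS and TG_MS. The transgene was driven by the human gene's own flanking sequence, and the rats were young adults. Each litter was allocated to 1 environment as a whole, so animals of 1 environment may share a litter, and litters are not given in the labels.

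The mitochondrial genome is a small circular DNA present in many copies per cell. It encodes a few core subunits of the respiratory chain, and all other subunits come from the nucleus. Both of its strands are transcribed as long precursors that are cut into single messages, most of which carry a poly(A) tail and are therefore retained by the poly(A) selection used here. Complex I passes electrons from NADH to ubiquinone, complex III passes them on to cytochrome c, complex IV reduces oxygen, and complex V is the ATP synthase. Impaired energy metabolism of the striatum has long been studied in Huntington disease, which motivates a look at these messages in young BACHD rats.

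Of the 10 genes, 5 encode core subunits of complex I, namely Mt-nd1 (ENSRNOG00000030644), Mt-nd2 (ENSRNOG00000031033), Mt-nd3 (ENSRNOG00000033615), Mt-nd4 (ENSRNOG00000029707) and Mt-nd5 (ENSRNOG00000029971). Mt-cyb (ENSRNOG00000031766) encodes cytochrome b of complex III. Mt-co1 (ENSRNOG00000034234), Mt-co2 (ENSRNOG00000030371) and Mt-co3 (ENSRNOG00000030700) encode the catalytic core of complex IV and its neighbouring subunit. Mt-atp6 (ENSRNOG00000031979) encodes a subunit of the proton channel of complex V. All lie on the mitochondrial chromosome and have no introns. The nuclear genome holds copies of mitochondrial sequence, and how reads that fit both places were counted is not given in the sources used here, so the values below carry that uncertainty.

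The total count per library ranged from 9895073 to 19284439, with a median of 12523870. Every library was deep for these genes, since the lowest count of any member in any library was 13954, for Mt-nd3, and the highest was 966990, for Mt-co1. Counting error was therefore small against the spread between animals. In the library with the lowest summed share, WT_SE of library run 5, the share of 13.63% had a 95% Wilson interval of 13.61 to 13.65%, which covers counting error only. Library numbers go from 1 to 36, and cutting them into 6 successive runs puts an animal of each group into every run. What the numbers stand for at the bench is not given.

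The 10 genes together took up 18.4% ± 2.08 (SD, n = 36) of all counts, and 9 of them were among the 10 genes with the highest summed counts. The summed share ran from 13.6% to 22.3%, a 1.64-fold range between animals. Mt-co1 had the highest count of all genes in 36 of 36 libraries, at 5.20% ± 0.55 of all counts (n = 36). Mt-co3, Mt-cyb, Mt-atp6, Mt-nd2, Mt-nd1, Mt-nd4 and Mt-co2 held ranks 2 to 8 in that order, Mt-nd5 held rank 10 and Mt-nd3 held rank 20. This order is of counts, not of counts per length, because gene lengths were not used here, and it does not rank the genes by number of molecules.

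By complex, the 5 genes of complex I summed to 6.09% ± 0.76 of all counts (n = 36) and the 3 genes of complex IV to 8.64% ± 0.95. Mt-cyb of complex III stood at 1.89% ± 0.22 and Mt-atp6 of complex V at 1.81% ± 0.21. The smallest complex I member, Mt-nd3, took up 0.174% ± 0.0261. These are levels as shares of all counts, so a higher share can mean more of these messages or less of the others. In bulk tissue, fewer cells of a type and less RNA per cell cannot be told apart.

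The members moved up and down together from animal to animal. Taking each library's log2 share as a deviation from its group mean, Pearson's r between 2 members had a median of 0.868 over 45 pairs and 36 libraries, from 0.634 for Mt-nd3 and Mt-cyb to 0.976 for Mt-co2 and Mt-atp6. The points share library, depth and the common total, so this is a description only. The coefficient of variation of the share over all libraries was lowest for Mt-co1 at 10.6% and highest for Mt-nd3 at 14.97%.

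The summed share did not separate the 6 groups. In the standard environment, WT_SE animals ranged from 13.6% to 20.9% with a median of 18.2%, and TG_SE animals from 15.9% to 20.2% with a median of 17.7%. In the enriched environment, WT_EE animals ranged from 16.3% to 22.3% with a median of 19.1%, and TG_EE animals from 15.8% to 21.7% with a median of 18.9%. After maternal separation, WT_MS animals ranged from 17.9% to 21.99% with a median of 19.4%, and TG_MS animals from 15.7% to 19.96% with a median of 16.9%. All groups overlapped, and the pair after maternal separation lay furthest apart within an environment.

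**Figure D1:**
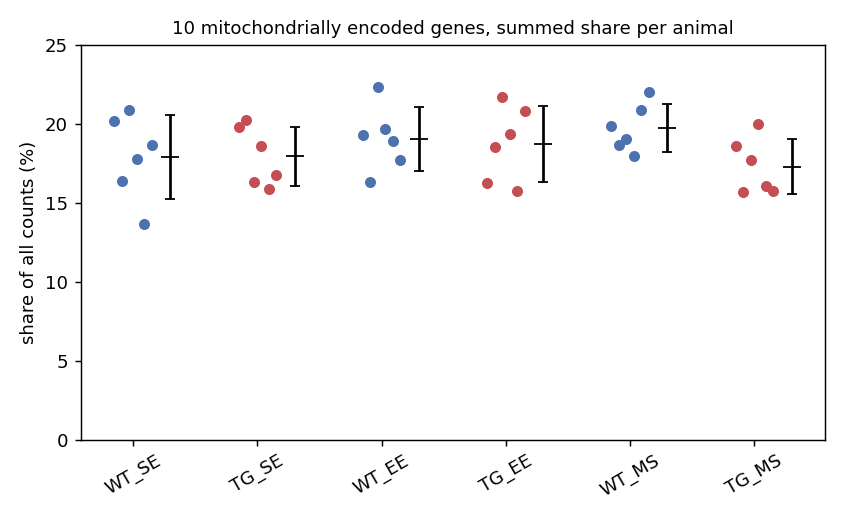
Share of all counts (%) taken by the 10 mitochondrially encoded genes in each animal (points, blue WT and red TG, 6 per group), with the group mean ± SD beside them. The TG_MS mean of 17.3% is the lowest and the WT_MS mean of 19.7% the highest, and the animals of these groups overlap.

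The median level also differed between library runs. The median share per run was lowest in run 5, at 15.95%, and highest in run 3, at 19.94%, with 6 animals in each. Run accounted for 21.5% of the variance of the log2 summed share and group for 15.5%. Run and group each divide the animals into 6 sets, which takes up part of the variance even without any relation. Neither value was tested. Within runs, TG exceeded WT in 3 of 6 runs under SE, in 2 of 6 under EE and in 1 of 6 under MS.

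**Figure D2:**
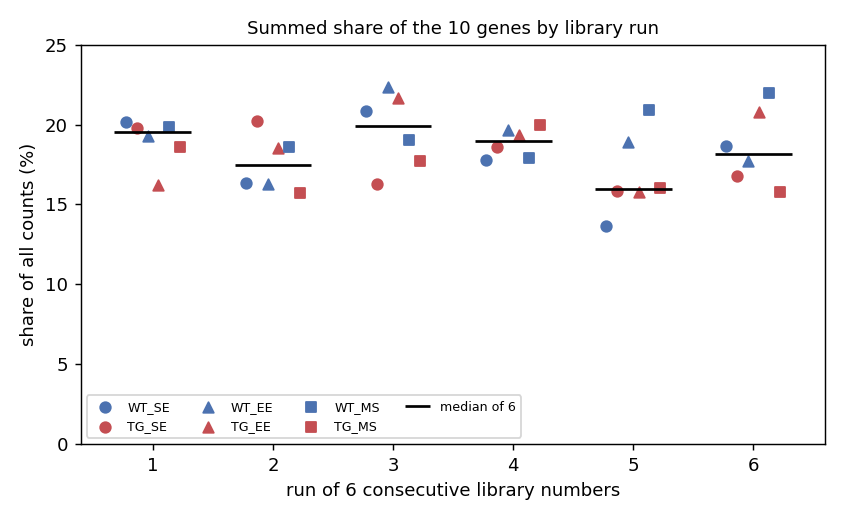
Summed share of all counts (%) of the 10 genes against the run of 6 consecutive library numbers, with 1 animal of each group per run (colour for genotype, shape for environment) and the run median as a line. Run 5 holds the lowest library, a WT_SE animal at 13.6%, and run 3 the highest, a WT_EE animal at 22.3%.

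The first question of the design was whether the transgene altered expression in each environment. No member passed the test in the standard environment. The edgeR quasi-likelihood test, with 5 surrogate variables as covariates and Benjamini-Hochberg adjustment over all genes tested, called 0 of 10 members in TG_SE/WT_SE, against 0.213% of all genes. A gene was called where its adjusted p was 0.1 or lower and its log2 fold change was 0.3 or more in either direction. At an unadjusted p under 0.05 it was 0 of 10 against 6.16%. The median log2 fold change of the members was 0.03. Mt-nd5 had the smallest p, with a log2 fold change of 0.13 (SE 0.099, adjusted p = 0.912, edgeR).

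The complex I gene Mt-nd5 illustrates the size of the spread. As a share of all counts it ranged from 0.591% to 0.888% in WT_SE (median 0.805%) and from 0.658% to 0.870% in TG_SE (median 0.819%). The TG_SE animals lay inside the range of the WT_SE animals.

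In the enriched environment, TG_EE/WT_EE, again 0 of 10 members were called against 0.411% of all genes, and 0 of 10 had an unadjusted p under 0.05 against 11.4%. The median log2 fold change of the members was 0.00. Mt-nd1 had the smallest p, with a log2 fold change of 0.13 (SE 0.095, adjusted p = 0.647, edgeR). Its share ranged from 1.47% to 2.07% in WT_EE (median 1.76%) and from 1.62% to 2.13% in TG_EE (median 1.85%), so the groups overlapped over most of their range.

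After maternal separation the shares of all 10 members had lower means in TG_MS than in WT_MS, yet none passed the test. The log2 difference of the summed share was -0.19 (SE 0.074, n = 6 per group). Over single members the difference of the mean log2 share lay between -0.25 for Mt-nd3 and -0.12 for Mt-nd5, with a median of -0.20. The groups overlapped for each member, with 0 of 10 apart against 0.49% of all genes tested.

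The complex IV gene Mt-co1 ranged from 5.08% to 6.20% of all counts in WT_MS (median 5.53%) and from 4.51% to 5.63% in TG_MS (median 4.83%). Mt-co3 ranged from 2.01% to 2.51% in WT_MS (median 2.22%) and from 1.75% to 2.22% in TG_MS (median 1.88%). In both genes the TG_MS median lay below the lowest WT_MS animal, while the highest TG_MS animals reached into the WT_MS range.

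The complex V gene Mt-atp6 ranged from 1.76% to 2.17% in WT_MS (median 1.92%) and from 1.51% to 1.94% in TG_MS (median 1.63%). Mt-cyb of complex III ranged from 1.79% to 2.29% in WT_MS (median 2.02%) and from 1.56% to 2.05% in TG_MS (median 1.79%). Mt-nd4 of complex I ranged from 1.51% to 1.84% in WT_MS (median 1.68%) and from 1.28% to 1.71% in TG_MS (median 1.43%). Genes of complexes I, III, IV and V thus had lower TG_MS medians with overlapping animals.

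With 5 surrogate variables, edgeR called 0 of 10 members in TG_MS/WT_MS against 0.134% of all genes, and 0 of 10 had an unadjusted p under 0.05 against 7.36%. The median log2 fold change of the members was then -0.09. Mt-co1 had the smallest p, at a log2 fold change of -0.09 (SE 0.070, adjusted p = 0.865, edgeR). Without surrogate variables the median was -0.25 and 6 of 10 members had an unadjusted p under 0.05, against 5.2% of all genes. With library run as a replicate block in place of the surrogate variables it was -0.26, and 9 of 10 members had an unadjusted p under 0.05 against 7.84%. Since the members moved together across animals, such counts are not independent of each other.

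No member was called in either of those fits. Mt-atp6 without surrogate variables had a log2 fold change of -0.27 (SE 0.11, adjusted p = 0.900, edgeR). The 5 surrogate variables, which are estimated from the expression of all genes, accounted for 65.5% of the variance of the log2 summed share, and for 42.6% (Mt-nd2) to 76.1% (Mt-co1) of that of single members. Whether they hold technical or biological variation was not tested.

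**Figure D3:**
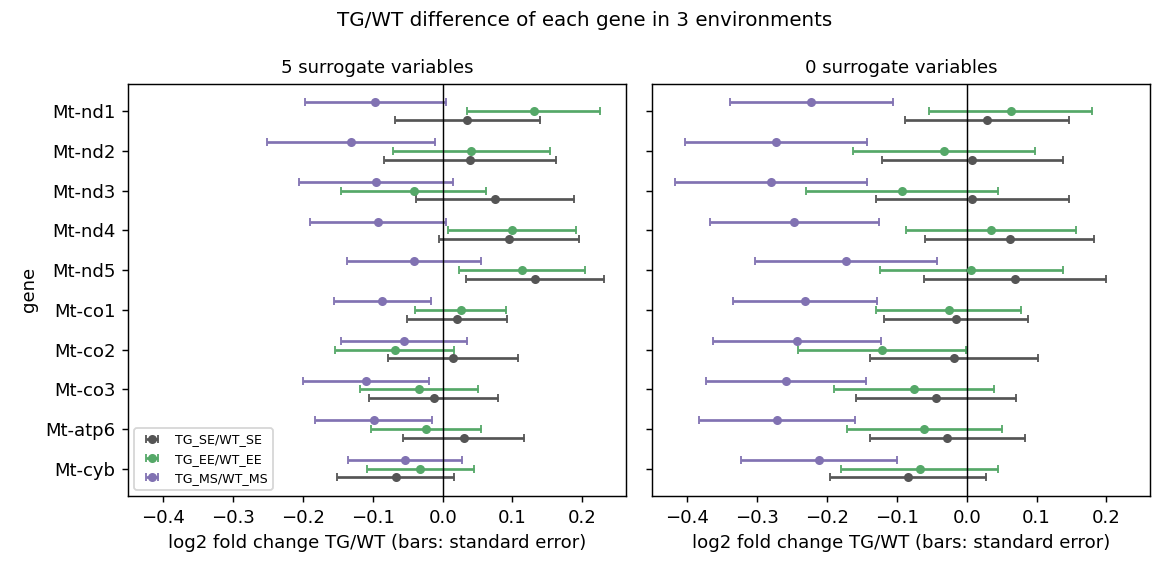
Log2 fold change TG/WT of each of the 10 genes (points, bars ± standard error) under SE, EE and MS, from edgeR fits with 5 surrogate variables on the left and with none on the right. After maternal separation all points lie below 0 in both panels, with a median of -0.09 on the left and -0.25 on the right.

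Averaged over the 3 environments, TG/WT called 0 of 10 members against 0.577% of all genes, and 0 of 10 had an unadjusted p under 0.05 against 15.3%. The median log2 fold change of the members was -0.02, with 7 of 10 members below 0. Without surrogate variables it was -0.11 and with library run as a replicate block also -0.11, with 10 of 10 below 0 in both and 0 of 10 at an unadjusted p under 0.05. With 5 surrogate variables, Mt-nd5 had the smallest p, at a log2 fold change of 0.07 (SE 0.052, adjusted p = 0.591, edgeR). The 95% intervals (normal approximation) of the 10 estimates all lay between -0.15 and 0.17, so a genotype difference of the size of the 0.3 threshold, averaged over environments, lies outside each of them in this fit.

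The second question was whether the environment altered expression within a genotype. In wildtype rats 0 of 10 members were called after enrichment (WT_EE/WT_SE, 0% of all genes) and 0 of 10 had an unadjusted p under 0.05 against 6.02%. All 10 members had a higher mean share in WT_EE than in WT_SE, with a median log2 difference of 0.10. Mt-co2, with the smallest p, ranged from 0.992% to 1.58% in WT_SE (median 1.37%) and from 1.23% to 1.72% in WT_EE (median 1.49%). Its log2 fold change was 0.13 (SE 0.085, adjusted p = 0.873, edgeR).

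Maternal separation in wildtype rats, WT_MS/WT_SE, also called 0 of 10 members against 0% of all genes, with 0 of 10 at an unadjusted p under 0.05 against 6.14%. All 10 members again had a higher mean share, with a median log2 difference of 0.14. Mt-co3 ranged from 1.51% to 2.41% in WT_SE (median 2.03%) and from 2.01% to 2.51% in WT_MS (median 2.22%). Its log2 fold change was 0.14 (SE 0.094, adjusted p = 0.872, edgeR). WT_SE is the control of both comparisons, so they are not independent. It holds the library with the lowest summed share, and without that animal the log2 difference of the summed share moved from 0.09 to 0.019 in WT_EE/WT_SE and from 0.15 to 0.074 in WT_MS/WT_SE.

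In transgenic rats, enrichment (TG_EE/TG_SE) called 0 of 10 members against 0% of all genes, and 0 of 10 had an unadjusted p under 0.05 against 3.05%. The mean share was higher in TG_EE than in TG_SE for 9 of 10 members, with a median log2 difference of 0.05. Mt-cyb had the smallest p, at a log2 fold change of 0.13 (SE 0.085, adjusted p = 0.9998, edgeR). Maternal separation (TG_MS/TG_SE) called 0 of 10 against 0%, with 0 of 10 at an unadjusted p under 0.05 against 4.13%. In this edgeR fit, with the surrogate variables as covariates, the median log2 fold change of the members was -0.01. The mean share, which is not adjusted for them, was higher in TG_MS than in TG_SE for 1 of 10 members. Its median log2 difference was -0.07, from -0.19 for Mt-nd3 to 0.03 for Mt-cyb. TG_SE is the control of both TG_EE/TG_SE and TG_MS/TG_SE.

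Averaged over genotypes, EE/SE called 0 of 10 members against 0.0079% of all genes, and 0 of 10 had an unadjusted p under 0.05 against 4.8%. Mt-cyb, which had the smallest p of the 120 tests, had a log2 fold change of 0.11 (SE 0.055, adjusted p = 0.9995, edgeR). In DESeq2 with the same surrogate variables Mt-cyb was the 1 member with an unadjusted p under 0.05, against 4.04% of all genes, and it was not called. MS/SE averaged over genotypes called 0 of 10 against 0%, with 0 of 10 at an unadjusted p under 0.05 against 6.29%.

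The third question was whether the genotype difference depended on the environment. The difference between TG/WT under EE and under SE called 0 of 10 members against 0% of all genes, with 0 of 10 at an unadjusted p under 0.05 against 4.02%. Mt-nd3, which had the smallest p, gave -0.12 on the log2 scale (SE 0.16). The difference between TG/WT under MS and under SE also called 0 of 10 against 0%, with 0 of 10 at an unadjusted p under 0.05 against 4.2%, and the median of the members was -0.13. Mt-nd4 gave -0.19 (SE 0.14). Without surrogate variables the median was -0.24, and with library run as a replicate block it was -0.27, with 10 of 10 members below 0 in both. In the latter 1 of 10 members had an unadjusted p under 0.05, against 6.89% of all genes. The 95% intervals reached from -0.50 to 0.24 over the 10 members in the fit with 5 surrogate variables, so these animals do not bound an interaction to less than the threshold of 0.3.

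DESeq2 with the same surrogate variables also called 0 of 10 members in each of the 12 comparisons, as did DESeq2 without them. Standard errors over the 120 tests of members ran from 0.038 to 0.17 on the log2 scale, with a median of 0.091.

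A second view removed the common level by giving each member as a percentage of the summed 10 genes in its library. This measure was chosen after seeing the data and is a description with no test. The coefficient of variation over 36 libraries ran from 2.48% for Mt-atp6 to 10.1% for Mt-nd3, against 11.3% for the summed share of all counts. Each member is part of the sum it is divided by, so a smaller spread than that of the summed share is partly built in.

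In 1 of 70 pairings of a member with a comparison of 2 groups the animals did not overlap. Mt-nd1 made up 9.04% to 9.27% of the summed genes in WT_EE (9.17% ± 0.09, SD, n = 6) and 9.29% to 10.5% in TG_EE (9.84% ± 0.40, n = 6), and it was higher in TG_EE in 6 of 6 runs. Of the 70 pairings, 4 went in 1 direction in all 6 runs, this one included. The pairings share groups and members, and no share over all genes was computed for this count, so it is not read as a result. Among all genes tested, 0.079% had ratios to the summed members that did not overlap between WT_EE and TG_EE. The members' common level cancels in their own ratios, but the division can add it to those of other genes. The percentage is therefore not a like background for the members. For Mt-nd1 the gap between the nearest animals was small, and the WT_EE animals lay closer together than those of any other group. Under SE the same gene stood at 9.34% ± 0.62 in WT_SE and 9.57% ± 0.58 in TG_SE, and under MS at 9.58% ± 0.29 in WT_MS and 9.69% ± 0.28 in TG_MS, with overlap in both.

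**Figure D4:**
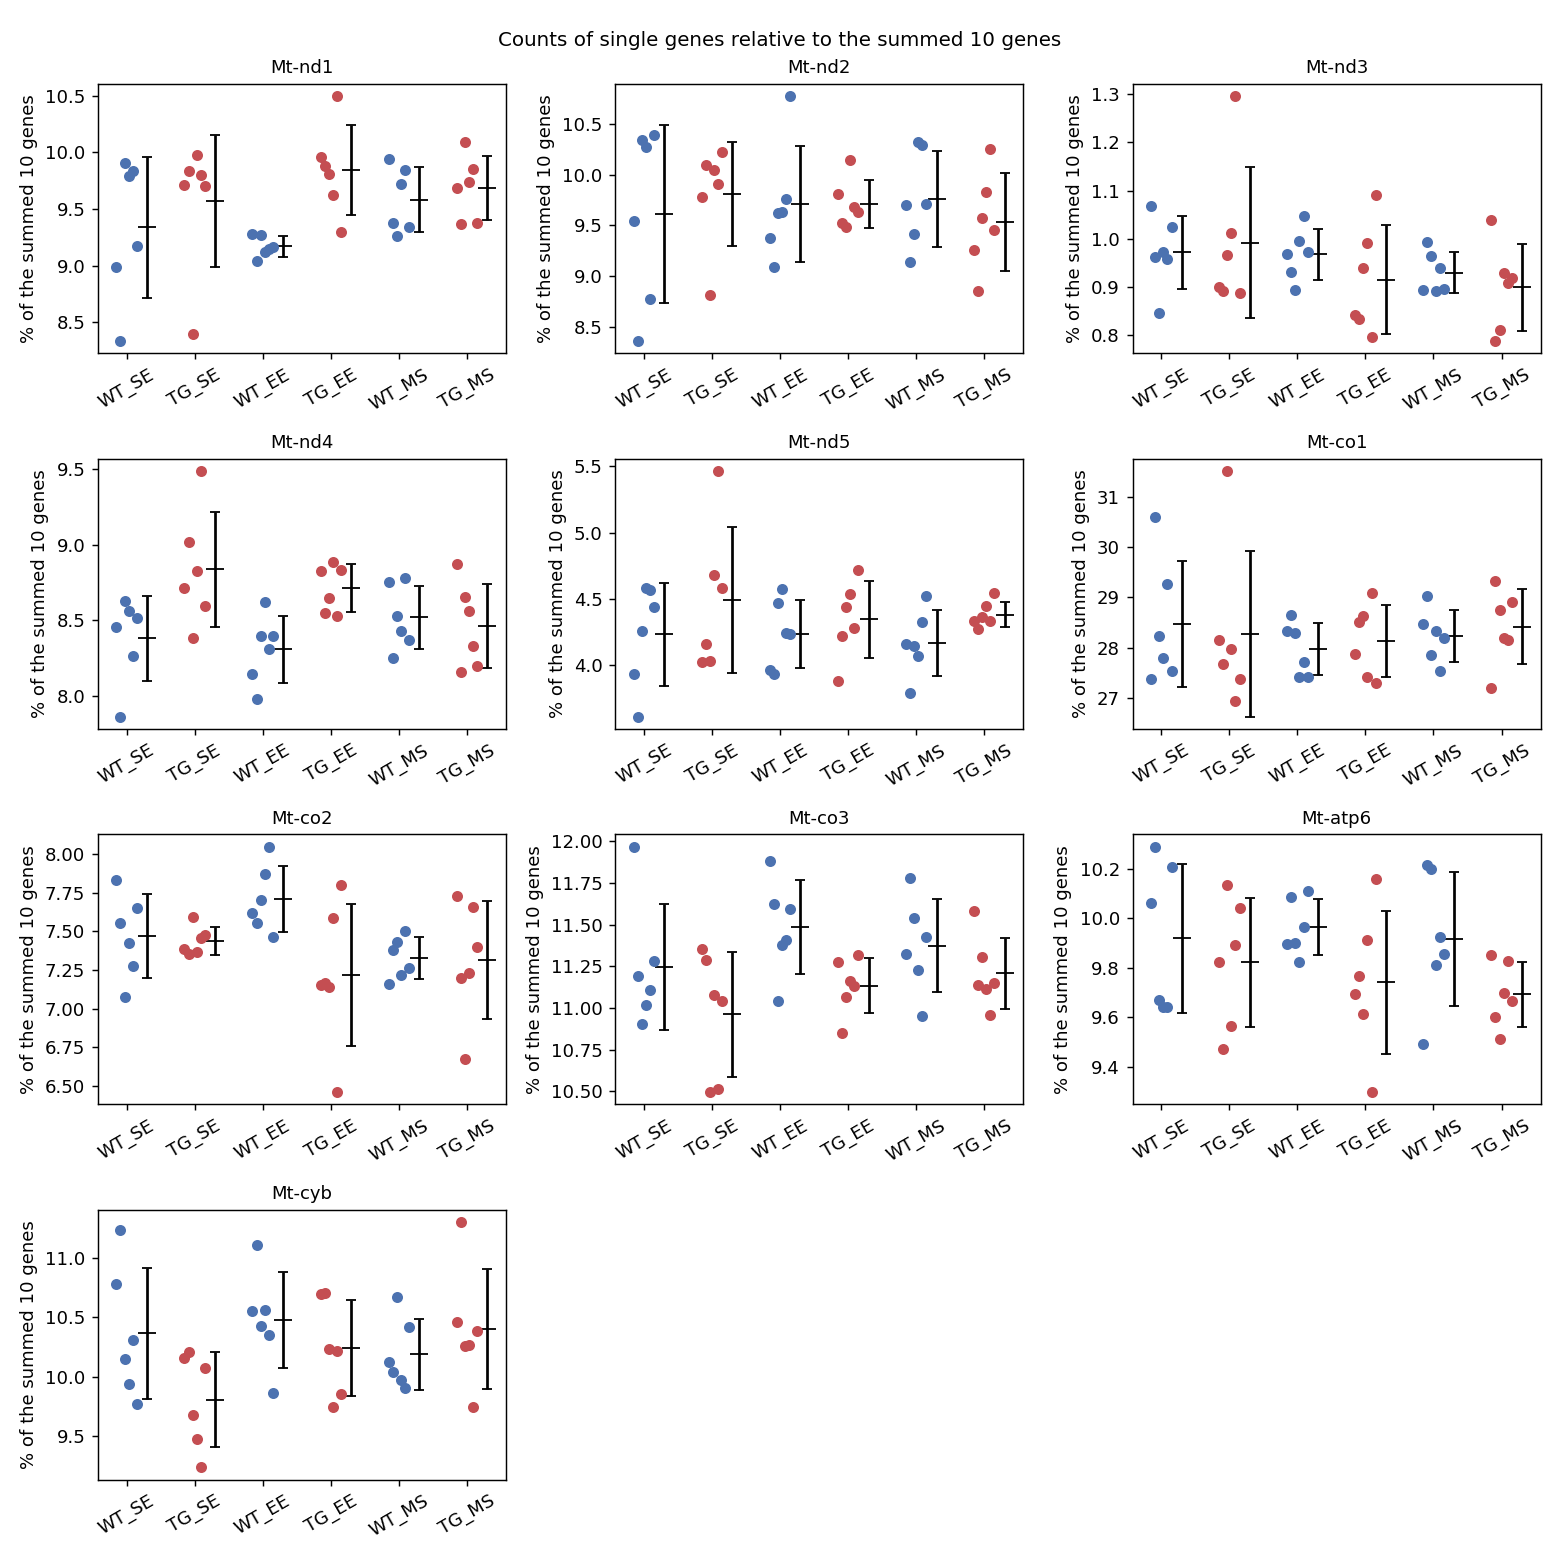
Counts of each of the 10 genes as a percentage of the summed 10 genes in each animal (points, 6 per group, blue WT and red TG), with the group mean ± SD; the axes do not start at 0. For Mt-nd1 the WT_EE animals lie between 9.04% and 9.27%, below all TG_EE animals, and this is the 1 of 70 pairings without overlap.

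The level of Mt-co1, as the most abundant member, was set against 2 properties of the libraries. With total counts its share had r = 0.05 (permutation p = 0.778) and rho = -0.11 (permutation p = 0.527) over 36 libraries, and r = 0.06 without the 2 libraries farthest from the median total. With the number of genes having at least 1 count it had r = -0.30 (permutation p = 0.0767, adjusted 0.153 over 2 relations) and rho = -0.36 (permutation p = 0.0325, adjusted 0.0651). Without the 2 farthest libraries r was -0.31, and r of deviations from group means was -0.22. A higher share of Mt-co1 leaves fewer counts for other genes, so the measures are not independent.

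Among the other 12647 genes tested, with levels computed on counts outside the members, the gene whose deviations from group means were most like those of the summed members was ENSRNOG00000029042 (r = 0.930 over 36 libraries), followed by ENSRNOG00000047493 (r = 0.815). The most opposite were ENSRNOG00000018020 (r = -0.860) and ENSRNOG00000050090 (r = -0.827). In all, 300 genes had r above 0.5 and 434 had r below -0.5. The count table does not pair these identifiers with names. Only the members were left out of this pool, because other mitochondrially encoded genes could not be matched to identifiers. The genes most like the members may therefore be mitochondrially encoded themselves, and whether they are was not tested.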

How the data were processed

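Poly(A)-selected RNA of the striatum was sequenced as paired-end reads. The authors checked reads with FastQC 0.11.4, aligned them with STAR 2.5.2b to a genome made of the rat Ensembl sequence and the human HTT transgene. Raw counts per gene were deposited, and the counting settings are not given in the sources used here. Every column of the table was assigned to a sample by title, and groups came from the genotype and environment labels. The table holds Ensembl identifiers without symbols, and members were named by the rule.

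From the deposited counts, shares of the total count per library were computed. All 12 comparisons were fitted in edgeR 4.0.16 (TMM, quasi-likelihood test, R 4.3.3), with 1 mean per group and 5 surrogate variables from sva 3.50.0. The fits covered the 12657 genes with a mean count of at least 50. Use of surrogate variables and the thresholds for a call followed the study. Its minimum of 50 reads was taken here as a mean raw count. Alternatives were other numbers of surrogate variables, library run as covariate, DESeq2 1.42.0 with and without surrogate variables, other scaling, filters and thresholds, only the compared groups, and each animal left out. Figures and shares used pandas 2.3.3, SciPy 1.17.1 and matplotlib 3.10.9. On simulated counts for TG_EE/WT_EE the fit was tested with 200 changed genes before use. P-values of the fits set a difference against the spread between these animals that is left after the covariates of each fit. Litters are not given in the labels, so the spread between litters is not measured.

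The members and lists were chosen with earlier results of these data known. The named genes are the 10 members. The member quoted per comparison is the one with the smallest p, picked after the tests, and of the genes most like the members 2 in each direction are printed. A test of the summed share had been planned but was dropped: the rule uses identifiers alone, yet these genes were picked for study with earlier results known, so no p is given for a score over them. For that reason the correlations use Mt-co1 alone. Lists of nuclear respiratory chain genes and cell type markers (175 symbols) matched 0 identifiers through the reference table, so they, the tissue label and the transgene's own expression were not analysed here. No 2 libraries of a group differed by as little as sampling noise (lowest chi-square per degree of freedom 5.04). The replicate number is the library run, and pairing by run entered only as the covariate named above.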

Additional observations from a re-analysis of the deposited data

How the results depend on the processing

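No member was called in any of the 12 comparisons under any alternative, including 216 fits of a comparison with 1 animal left out. Several medians over the members moved with the handling of surrogate variables. In TG_MS/WT_MS the median log2 fold change was -0.09 with 5 surrogate variables and -0.10 with surrogate variables from genes outside the members, but -0.25 with none, -0.22 with 2, -0.24 in DESeq2 without them, -0.25 with only the compared groups and -0.26 with library run as a replicate block. Members with an unadjusted p under 0.05 then numbered 6, 2, 7, 9 and 9 of 10, in that order, against 5.20, 6.53, 5.18, 6.41 and 7.84% of all genes, and their smallest adjusted p lay between 0.480 and 0.900. In the same comparison of settings, from 5 surrogate variables to none, 2, DESeq2 without them and library run, the median went from -0.02 to -0.11, -0.09, -0.11 and -0.11 in TG/WT averaged over environments, and from -0.13 to -0.24, -0.26, -0.24 and -0.27 in the difference between TG/WT under MS and under SE. From 5 surrogate variables to none it went from -0.01 to -0.08 in TG_MS/TG_SE, from 0.00 to -0.05 in TG_EE/WT_EE and from 0.033 to -0.004 in TG_SE/WT_SE. The cause was not tested. With 1 animal left out, the log2 difference of the summed share in TG_MS/WT_MS ran from -0.24 to -0.16, and in TG_SE/WT_SE from -0.067 (without the WT_SE animal of run 5) to 0.056, on both sides of 0. The replicate block changed no call. Mt-nd5 in TG/WT averaged over environments turned from 0.07 to -0.033 with 0 surrogate variables, -0.020 with 2, -0.026 with library run as covariate and -0.032 in DESeq2 without surrogate variables, and passed no threshold in any of them. No member's 6 animals in a group held a value apart from the rest by Dixon's criterion, in 66 sets of 6 including the summed share. In the fit with 5 surrogate variables every member's estimate lay within 0.19 of 0 on the log2 scale, below the minimum of 0.3 for a call. This did not hold in every alternative. In the difference between TG/WT under MS and under SE the lowest member estimate was -0.31 without surrogate variables and -0.36 with 2. It was -0.31 in DESeq2 without them and -0.34 with library run as a replicate block. These passed the minimum fold change but not the adjusted p.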
